A study of Mus musculus with 15 samples.

Results

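The clustered replication-dependent histone genes are the short gene copies that encode the histones H1, H2A, H2B, H3 and H4 in the Hist1 cluster on mouse chromosome 13, the Hist2 cluster on chromosome 3 and the Hist3 cluster on chromosome 11. Members were the protein-coding genes of the GENCODE M21 annotation whose symbols name a clustered histone gene and which reached 1 TPM (a share of all transcripts, corrected for length and scaled to a fixed total) in at least 3 of 15 libraries. This kept 56 of 67 annotated genes, among 12800 genes tested and 55421 in the table: 4 H1, 15 H2A, 15 H2B, 11 H3 and 11 H4 genes, of which 47 lie in Hist1, 7 in Hist2 and 2 in Hist3. The study concerned how T cell receptor signalling acts through STAT3 on TH17 differentiation.

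The libraries were made from mouse naive CD4 T cells (CD4+CD25−, high CD62L, low CD44) taken from spleen and lymph node, stimulated through CD3 and CD28 and harvested on day 5. All cultures also received antibodies that block IFNγ and IL-4. There were 5 groups of 3 libraries. Wild-type Treg cultures, grown with TGFβ (0.5 ng/ml unless stated otherwise) and 200 U/ml IL-2, received Srci1 or its solvent DMSO. Wild-type TH17 cultures, grown with 2.5 ng/ml TGFβ and 10 ng/ml each of IL-1β, IL-6 and IL-23, received Srci1 or DMSO. A further group of TH17 cultures came from STAT3-fl/fl CD4-cre mice and received DMSO. The compound Srci1 went in 24 h after the cells were plated, and its structure and concentration are not stated in the labels. In the knockout the Cre is driven by Cd4, so deletion occurs in T cells and not in the whole animal. The labels give no age for the mice and do not say whether replicates are separate animals or cultures. The p-values thus rest on the spread among the 3 libraries of a group, which may be technical spread alone.

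Cells make most of their core histone protein during S phase, when newly copied DNA must be packed into nucleosomes. The clustered genes have no introns in the usual case, and their mRNAs are the main animal mRNAs that end in a conserved stem-loop in place of a poly(A) tail. The stem-loop binding protein SLBP holds that structure through processing, translation and decay, and the mRNAs are degraded quickly when DNA synthesis stops. A minority of clustered histone mRNA carries a poly(A) tail, and such forms are known from differentiated cells. The libraries here were prepared by poly(A) selection, so the values below describe only the histone mRNA that this step let through, and not the total.

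In these libraries the clustered genes were the smaller part of the histone mRNA measured. Together the 56 members held from 285.2 to 693.4 TPM per library, against 2465 to 4352 TPM for 11 histone genes outside the clusters. These encode variants such as H2A.Z and H3.3, and most of them have ordinary polyadenylated mRNAs. Members averaged a median of 4.25 TPM over the 15 libraries, 14 members averaged at least 10 TPM and 11 averaged under 2 TPM. The 8 highest were Hist1h3c, Hist1h2ag, Hist1h2ap, Hist1h4i, Hist1h2bj, Hist2h2aa1, Hist1h3a and Hist1h2ai, and they held 47.6% to 51.6% of the members' summed TPM in the 5 groups. The highest H1 gene, Hist1h1c, averaged 7.45 TPM. In all, 31 members reached 1 TPM in every library and 11 were listed at 0 in at least 1 library. None of the members reached 1 TPM in the libraries of a single group only, while 3 did so in 2 groups and 3 in 3 groups. The members nearest the minimum were Hist1h2bh, Hist1h2ao and Hist1h3d, which reached at least 1.01, 1.08 and 1.5 TPM in 3 libraries. The nearest genes left out were Hist1h2be, Hist1h2bp and Hist1h1d, which reached 0.99, 0.61 and 0.59 TPM in as many, and the 11 genes left out summed to 0.72 to 3.73 TPM per library.

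The stem-loop is shown first because it sets these mRNAs apart from those a poly(A) step is made for. The letters GGNNNTTTTNANNNCC were searched on the sense strand of each gene's annotated transcript, and a match was kept only where its arms can pair (G-U pairs allowed). Such a stem-loop was found in 36 of 56 members, against 21 of 21799 other protein-coding genes (0.1%). In the other 20 members the annotated transcript does not hold such a stem-loop. These 20 models had a median length of 411 bases, from 312 to 2620. A model that stops before the 3′ UTR cannot show the element, so its absence does not show that the gene lacks it. The elements of 6 of the members described below are given 5′ to 3′ from the GENCODE M21 transcripts, with the 16-base stem-loop in capitals between 5 flanking bases on each side.
Hist1h3c: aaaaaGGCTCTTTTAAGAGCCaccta
Hist1h2ag: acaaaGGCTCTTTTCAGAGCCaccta
Hist1h2bj: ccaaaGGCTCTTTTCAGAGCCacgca
Hist1h1c: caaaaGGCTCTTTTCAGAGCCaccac
Hist1h4h: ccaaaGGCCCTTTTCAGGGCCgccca
Hist1h4i: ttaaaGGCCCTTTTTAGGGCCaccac
On GRCm38 these stem-loops lie at chr13:23745047-23745062 on the minus strand (Hist1h3c), chr13:22042483-22042498 on the minus strand (Hist1h2ag), chr13:22043638-22043653 on the plus strand (Hist1h2bj), chr13:23739512-23739527 on the plus strand (Hist1h1c), chr13:23531458-23531473 on the plus strand (Hist1h4h) and chr13:22040966-22040981 on the minus strand (Hist1h4i), each in the 3′ UTR.

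The members shared 6 versions of the 16 bases. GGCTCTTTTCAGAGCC stood in 21 members of the H1, H2A, H2B and H3 types, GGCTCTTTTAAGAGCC in 5 H2B and H3 members, and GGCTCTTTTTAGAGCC in 1 H2A member. The H4 genes differed in the stem: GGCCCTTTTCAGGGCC stood in 6, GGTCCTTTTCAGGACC in 2 and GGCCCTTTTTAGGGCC in 1, Hist1h4i, and none of these 3 versions stood in a member of another type. The annotated transcript ended within 60 bases past the stem-loop in 20 members and ran further in 16. Mean levels over the 15 libraries had a median of 7.96 TPM in the 20 short models, 2.43 TPM in the 16 long ones and 3.86 TPM in the 20 members with no stem-loop in the model. Across the 56 members, model length and mean TPM had a Spearman rho of -0.3, as a description, since the members share libraries and TPM itself divides by length. The letters of a poly(A) signal (AATAAA or ATTAAA) lay in the last 40 bases of 11 models. These were the models of Hist1h1c, Hist1h2ae, Hist3h2a, Hist1h2bq, Hist1h2br, Hist2h2be, Hist3h2ba, Hist1h4a, Hist1h4h, Hist1h4i and Hist1h4j. A match of letters does not show that the signal is used.

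**Figure D1:**
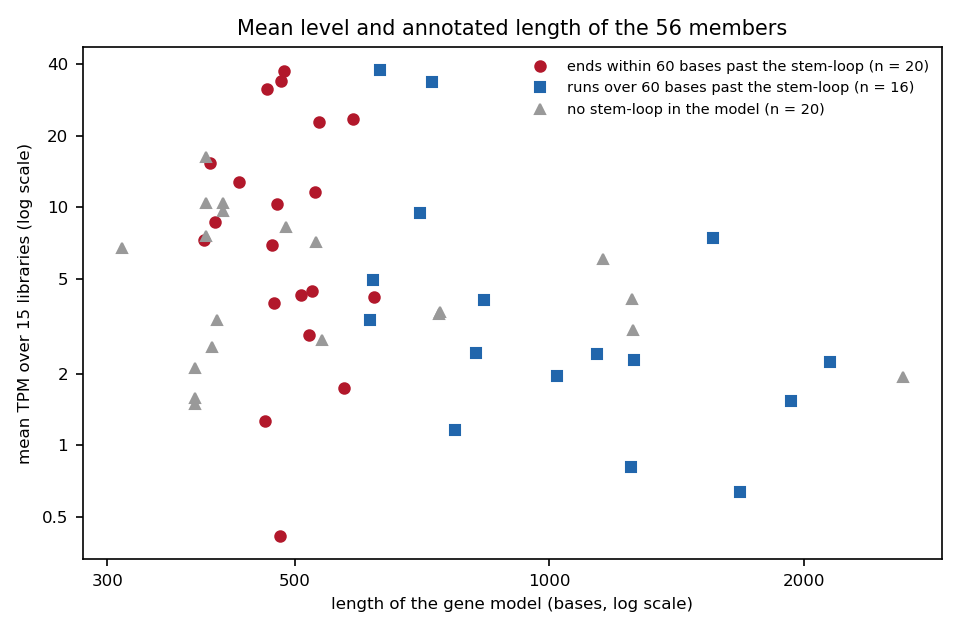
Each point is 1 of the 56 members, placed by the length of its annotated transcript (x axis, bases, log scale) and its mean TPM over 15 libraries (y axis, log scale), and marked by where the transcript ends. Models that end within 60 bases past the stem-loop are at most 620 bases long and have a median of 7.96 TPM, while those that run further reach 2146 bases and have a median of 2.43 TPM.

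Histone gene copies are nearly alike, which bears on single-gene values. Of all 75-base stretches in a member's transcript, under 50% were found in no other gene for 27 members, and none were unique to Hist2h2aa2 or Hist1h2bq, whereas 3 members (Hist1h1a, Hist1h1b and Hist2h2be) were unique throughout. How reads were divided among copies is set by the counting step, so values of single copies with few unique stretches are uncertain. The spread between libraries of a group, as an SD of log2(TPM + 1), had a median of 0.39 over the members. It was 0.17 over all genes tested and 0.23 over 2449 genes of like level. The lowest was 0.13 for Hist1h4i and the highest 1.57 for Hist2h2aa2, which ranged from 0 to 23.2 TPM.

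Across the 12800 genes tested, which are not independent replicates, r was 0.977 to 0.986 between libraries of the same group. Stat3 averaged 34.2 ± 3.90 TPM in the STAT3 knockout and 120.8 ± 18.3 TPM in wild-type DMSO TH17 libraries (SD, n = 3 each). The Treg markers Foxp3, Il2ra and Ikzf2 summed to 1286 to 1375 TPM in Srci1 Treg and 852.9 to 860.4 TPM in DMSO Treg libraries, and were highest, at 1366 to 1484 TPM, in Srci1 TH17 libraries, above the 581.8 to 797.6 TPM of DMSO TH17 libraries. Ribosomal protein genes took a lower share of all TPM with Srci1 in both culture types, at 20.9% in Srci1 Treg, 25.03% in DMSO Treg, 22.1% in Srci1 TH17, 28.7% in STAT3 knockout TH17 and 28.4% in DMSO TH17 libraries. TPM has a fixed total, so the values of other genes depend on this share, which was not lower in the knockout than in wild type. The median difference of all genes was above 0 in each comparison. Differences below are of log2(TPM + 1), which understates changes of low genes, with adjusted p from limma over the 12800 genes, and a gene was called at an adjusted p under 0.05. In bulk RNA, fewer cells making a transcript and less of it per cell cannot be told apart.

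The summed level of the members differed between groups and between histone types. All 56 members together held 620.6, 603.3 and 693.4 TPM in Srci1 Treg libraries and 501.3, 517.0 and 612.5 TPM in DMSO Treg libraries. They held 478.1, 513.9 and 502.5 TPM in Srci1 TH17, 416.8, 350.3 and 391.8 TPM in STAT3 knockout TH17, and 289.4, 285.2 and 331.0 TPM in DMSO TH17 libraries. In TPM the DMSO TH17 libraries were thus below every library of the other 4 groups, and Srci1 Treg and DMSO Treg libraries overlapped. Under median-of-ratios scaling DMSO TH17 replicate 3 rose above knockout replicate 2. The ratio of the knockout sum to that of wild-type TH17 libraries was 1.28, and 1.16 under that scaling. H2A made up 43.3% of the sum in DMSO TH17 libraries, the highest share of the 5 groups, which otherwise ranged from 31.0% in DMSO Treg to 39.4% in STAT3 knockout libraries.

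The 4 other members among the 8 highest did not share one order of groups. Hist1h2ap held 48.8, 60.2 and 58.5 TPM in Srci1 Treg, 35.5, 43.1 and 53.8 TPM in DMSO Treg, 31.2, 35.9 and 18.2 TPM in Srci1 TH17, 24.0, 15.9 and 17.1 TPM in STAT3 knockout, and 23.6, 21.4 and 22.7 TPM in DMSO TH17 libraries. It was thus high in Treg libraries, and Srci1 TH17 libraries spread across the DMSO TH17 level. Hist1h3a held 23.4, 33.8 and 33.3 TPM in Srci1 Treg, 24.8, 24.95 and 28.6 TPM in DMSO Treg, 16.5, 26.2 and 20.6 TPM in Srci1 TH17, 16.5, 14.4 and 32.6 TPM in STAT3 knockout, and 10.9, 15.8 and 19.9 TPM in DMSO TH17 libraries. Hist1h2ai held 17.6, 13.9 and 16.4 TPM in Srci1 Treg, 14.0, 13.9 and 21.1 TPM in DMSO Treg, 14.7, 16.2 and 17.4 TPM in Srci1 TH17, 25.6, 14.9 and 16.1 TPM in STAT3 knockout, and 14.5, 15.2 and 12.5 TPM in DMSO TH17 libraries, with all groups overlapping. Hist2h2aa1 held 23.0, 12.1 and 13.3 TPM in Srci1 Treg, 16.1, 18.0 and 30.2 TPM in DMSO Treg, 23.7, 30.9 and 22.4 TPM in Srci1 TH17, 17.1, 17.6 and 29.6 TPM in STAT3 knockout, and 35.1, 28.5 and 35.5 TPM in DMSO TH17 libraries, so its 2 highest libraries were DMSO TH17 ones.

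**Figure D2:**
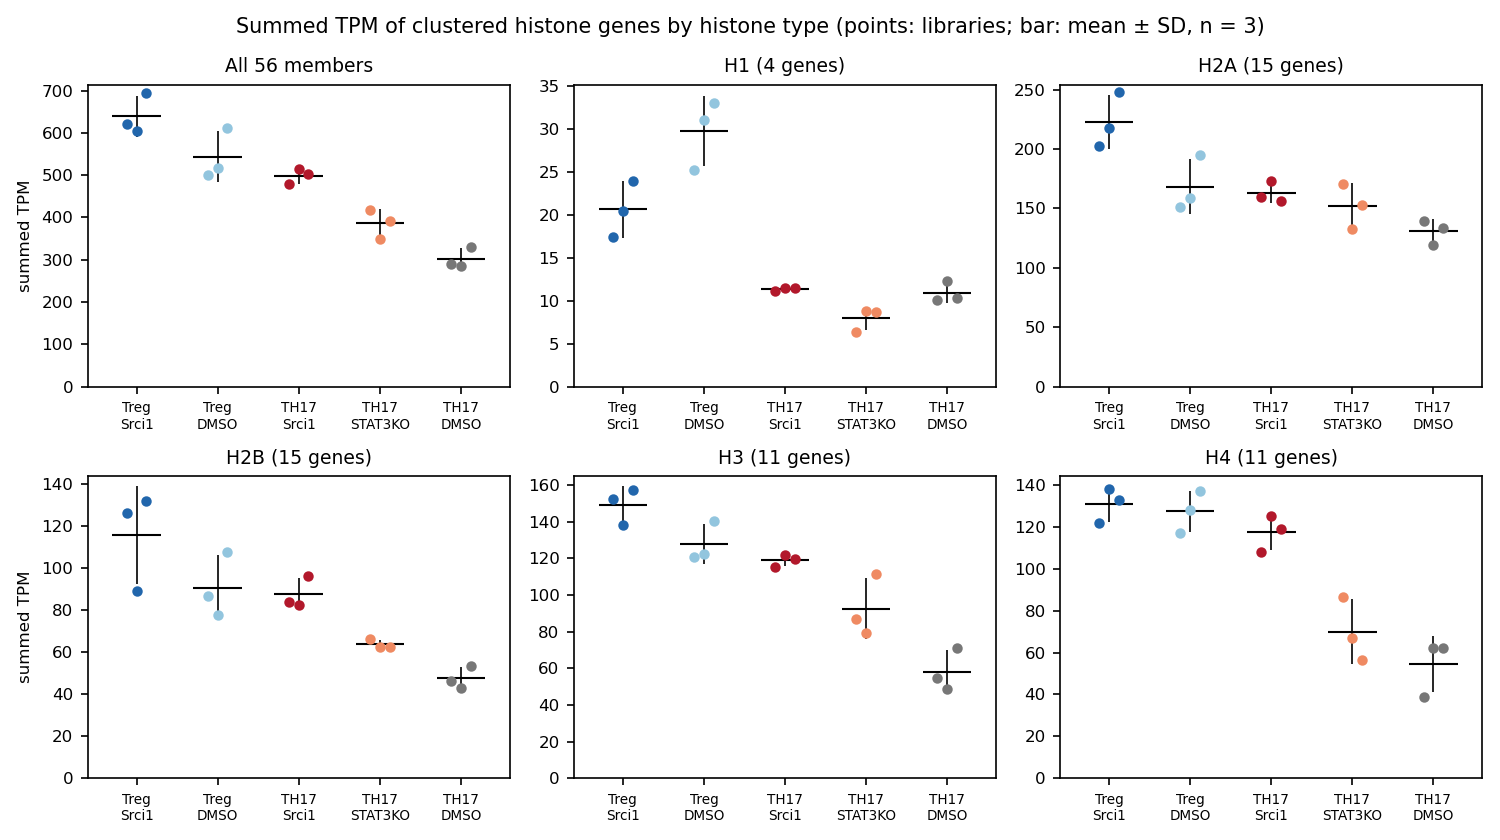
The y axes give the summed TPM of all 56 members and of each histone type, points are single libraries, and bars with lines are the mean ± SD of 3 libraries in each of the 5 groups. In the panel of all members the DMSO TH17 libraries, at 285.2 to 331.0 TPM, lie below all other libraries, and in the H1 panel the 6 Treg libraries lie above all 9 TH17 libraries. Under median-of-ratios scaling, not shown here, DMSO TH17 replicate 3 rose above knockout replicate 2 in the sum of all members.

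In TH17 cultures, Srci1 went with higher summed TPM of H4, H3 and H2B genes and with no called change in H1 genes. The summed TPM of H4 genes was 117.4 ± 8.67 with Srci1 and 54.4 ± 13.4 with DMSO, a ratio of 2.16, and that of H3 genes was 118.9 ± 3.33 and 58.2 ± 11.7, a ratio of 2.04 (SD, n = 3 each). H2B genes had a ratio of 1.84, H2A genes 1.25 and H1 genes 1.04. Under median-of-ratios scaling the H2A and H1 ratios became 1.03 and 0.859. By gene, 17 of 56 members were called higher and 0 lower (limma), with 24 higher and 0 lower at an unadjusted p under 0.05. Of all genes tested, 33.8% were called higher and 7.08% lower, so the 30.4% of members called higher is close to the share of all genes. Of all calls, 82.7% were higher, and 50.2% under median-of-ratios scaling. The members' median difference was 0.64, against 0.21 over all genes.

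By type, 6 of 11 H3, 2 of 11 H4, 5 of 15 H2B, 4 of 15 H2A and 0 of 4 H1 genes were called higher, beside 33.8% of all genes. Only the H3 share is above that of all genes, and 4 H1 genes are too few to read a count of 0. The types were not tested against that share. H3 and H4 form the tetramer at the centre of the nucleosome, and the highest gene of each of these types was among the called members. Hist1h3c, an H3 gene at chr13:23744973-23745602, held 42.0, 45.0 and 48.3 TPM in Srci1 TH17 libraries, against 18.0, 12.3 and 21.3 TPM in DMSO TH17 libraries. The groups did not overlap, and the difference was 1.37 ± 0.15 (SE; limma adjusted p = 1.62e-05). Hist1h4i, an H4 gene at chr13:22040636-22041362, held 39.1, 37.8 and 39.6 TPM with Srci1, against 15.9, 21.1 and 19.7 TPM with DMSO. Its Srci1 libraries were nearly level with one another and all above the DMSO ones, at a difference of 1.01 ± 0.11 (limma adjusted p = 8.96e-06). Hist1h4h, another H4 gene, held 8.67, 10.6 and 9.08 TPM with Srci1, against 2.7, 4.09 and 3.35 TPM with DMSO (difference 1.26 ± 0.23, limma adjusted p = 0.000708).

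H2A and H2B form the dimers that flank the tetramer. Hist1h2ab, an H2A gene, had the highest called difference, with 7.79, 7.13 and 7.05 TPM in Srci1 TH17 libraries, against 1.17, 0.40 and 3.25 TPM in DMSO TH17 libraries (1.83 ± 0.35, limma adjusted p = 0.00124). Hist1h2ae held 11.9, 9.85 and 8.84 TPM with Srci1, against 3.94, 2.81 and 5.19 TPM with DMSO (1.19 ± 0.21, limma adjusted p = 0.000566). In both, every Srci1 library was above every DMSO library. Hist1h2ag, the highest H2A gene, held 27.8, 30.5 and 39.8 TPM with Srci1, against 20.4, 15.3 and 20.4 TPM with DMSO (0.77 ± 0.21, limma adjusted p = 0.0107). The highest H2B gene, Hist1h2bj, held 39.6, 30.6 and 36.3 TPM with Srci1, against 7.92, 17.5 and 22.1 TPM with DMSO (1.22 ± 0.34, limma adjusted p = 0.0117). These genes also separated by group, with the DMSO libraries of Hist1h2bj spread widely. Hist1h2bf, an H2B gene, held 0.60, 0.86 and 3.47 TPM with Srci1 and was listed at 0 in all 3 DMSO libraries (limma adjusted p = 0.0469). Hist1h3h, an H3 gene with 6.5% unique stretches, held 17.7, 7.27 and 13.6 TPM with Srci1, against 3.17, 2.58 and 4.63 TPM with DMSO (1.58 ± 0.58, limma adjusted p = 0.0444). The calls of Hist1h2bf and Hist1h3h ended in 10 of 13 and 9 of 14 alternatives (limma adjusted p up to 0.206 and 0.144), which for both took in leaving out any 1 of the 3 DMSO TH17 libraries or Srci1 TH17 replicate 3.

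The rest of the 17 were Hist1h2ad, Hist1h2bg, Hist1h2bh, Hist1h2bm, Hist1h3f, Hist1h3g, Hist2h3b and Hist2h3c2. In 16 of the 17 the 2 groups did not overlap, Hist1h2ad being the exception. That count adds no support to the calls, which rest on the same values, and the share over all genes was not counted. The 39 members not called had differences from -1.41 for Hist2h2aa2 to 2.19 for Hist1h4k, whose libraries ranged from 2.20 to 12.9 TPM with Srci1 and from 0 to 3.67 TPM with DMSO. The 7 calls kept in each alternative that tested them were those of Hist1h2ab, Hist1h2ae, Hist1h2bm, Hist1h3c, Hist2h3c2, Hist1h4h and Hist1h4i. Of the 17 calls, 8 were kept under median-of-ratios scaling, 7 under quantile normalization, 8 without Srci1 TH17 replicate 3, 11 without Srci1 TH17 replicate 2, 10 without DMSO TH17 replicate 2 and 12 or 13 without any 1 of the other libraries. The calls of Hist1h2ag and Hist1h2bj ended under both scalings (adjusted p up to 0.132 and 0.0735), the first also without Srci1 TH17 replicate 3. The summed TPM of 5 red blood cell markers was 6.45 to 7.33 in Srci1 TH17 and 0 to 1.02 in DMSO TH17 libraries, and its part in the histone values was not tested.

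**Figure D3:**
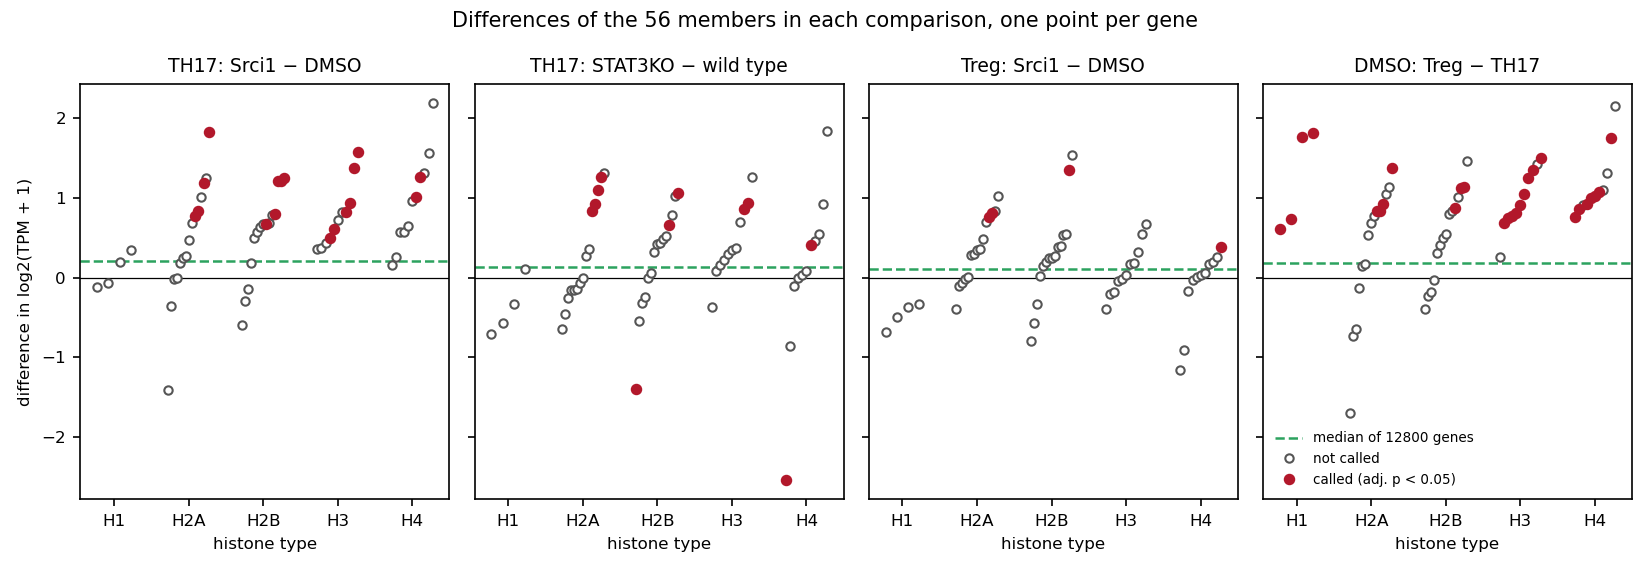
Each point is 1 of the 56 members, grouped by histone type on the x axis, with its difference in log2(TPM + 1) on the y axis in 4 comparisons. Filled points passed an adjusted p under 0.05 in limma, the dashed line is the median of 12800 genes, and the H3 and H4 points of the Srci1 against DMSO panel in TH17 cultures lie above 0 (10 of 11 H4 points under median-of-ratios scaling) while 2 of 4 H1 points lie below it.

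Loss of STAT3 in TH17 cultures went with a mixed pattern, in which 9 members were called higher and 2 lower than in wild type (limma). Of all genes tested, 30.9% were called higher and 18.9% lower, so the 16.1% of members called higher is below the share of all genes. Of all calls, 62.1% were higher, and 50.3% under median-of-ratios scaling. The median difference of 0.24 in members stood beside 0.13 over all genes. The summed TPM of H3 genes was 92.5 ± 16.7 in the knockout and 58.2 ± 11.7 in wild type, a ratio of 1.59. Ratios were 1.34 for H2B, 1.29 for H4 and 1.16 for H2A genes. H1 genes had a ratio of 0.727, at 7.97 ± 1.37 TPM in the knockout and 10.96 ± 1.23 TPM in wild type (SD, n = 3 each), with 3 of 4 genes below 0 and 0 called (limma), although these 3 passed an unadjusted p under 0.05. Hist1h1b, Hist1h1c and Hist1h1e were called lower under median-of-ratios scaling and under quantile normalization (adjusted p from 0.0093 to 0.0319), which gave 6 and 7 members called lower in place of 2, and there were 4 without knockout replicate 3.

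The knockout calls took in several members whose models hold the letters of a poly(A) signal in the last 40 bases. Hist2h2be, an H2B gene of the Hist2 cluster (chr3:96221119-96223738) whose transcript is unique in sequence, held 3.67, 3.95 and 3.74 TPM in knockout libraries, against 1.42, 1.33 and 1.13 TPM in wild-type TH17 libraries (1.06 ± 0.15, limma adjusted p = 4.59e-05). Hist3h2a, an H2A gene of the Hist3 cluster (chr11:58954685-58956830), held 4.02, 4.24 and 3.60 TPM in the knockout, against 1.70, 1.84 and 1.76 TPM in wild type (0.84 ± 0.15, limma adjusted p = 0.000456). Both genes sat at a narrow level within each group, and no other group reached the knockout level of either. Hist1h2ae held 14.2, 10.5 and 8.27 TPM in the knockout, against 3.94, 2.81 and 5.19 TPM in wild type (1.26 ± 0.21, limma adjusted p = 0.00017). Of the 11 members with poly(A) signal letters in the last 40 bases, 4 were called higher in the knockout and 0 lower. Of the 45 without these letters there, 5 were called higher and 2 lower. Of all genes tested, 30.9% were called higher and 18.9% lower, so the share of the 11 called higher is near that of all genes. The shares of the 11 and of the 45 were not tested against each other.

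Among the most abundant members, Hist1h2ag held 46.5, 31.7 and 46.2 TPM in the knockout, against 20.4, 15.3 and 20.4 TPM in wild type (1.10 ± 0.21, limma adjusted p = 0.000646). Hist1h3c held 30.3, 29.0 and 34.7 TPM in the knockout, against 18.0, 12.3 and 21.3 TPM in wild type (0.86 ± 0.15, limma adjusted p = 0.000372). Hist1h4i held 24.5, 28.8 and 23.1 TPM in the knockout, against 15.9, 21.1 and 19.7 TPM in wild type (0.42 ± 0.11, limma adjusted p = 0.00513). All 3 genes separated by group, Hist1h4i by the smallest margin, and its call ended under both scalings (adjusted p up to 0.0586). Hist1h2ab held 5.19, 2.48 and 3.13 TPM in the knockout, against 1.17, 0.40 and 3.25 TPM in wild type, and Hist2h3b, an H3 gene, 8.61, 5.56 and 8.50 TPM in the knockout, against 1.58, 3.96 and 5.61 TPM in wild type. The groups overlapped in both (0.93 ± 0.35 and 0.94 ± 0.34, limma adjusted p = 0.043 and 0.034). These calls and that of Hist1h2bg, at 0.67 ± 0.25, ended under both scalings, without knockout replicate 1, without knockout replicate 3 and without DMSO TH17 replicate 1 (adjusted p up to 0.205).

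The 2 members called lower were listed at 0 in all 3 knockout libraries, so no fold is given. Hist1h4m, an H4 gene, held 2.20, 6.12 and 7.67 TPM in wild-type TH17 libraries, and Hist2h2bb, an H2B gene, 3.4, 1.39 and 0.72 TPM (limma adjusted p = 0.00472 and 0.0211). Hist1h4m has 11% unique stretches and its near copy Hist1h4n held 22.5, 14.0 and 8.58 TPM in the knockout, against 2.67, 9.25 and 11.99 TPM in wild type. The sum of this pair was 15.04 ± 7.03 TPM in the knockout and 13.3 ± 7.61 TPM in wild type, a difference within the spread of either group. Without DMSO TH17 replicate 1 the call of Hist2h2bb ended (adjusted p = 0.0941). Markers of other cells also differed: B cell markers summed to 13.3 to 13.8 TPM in knockout and 0.75 to 0.99 TPM in wild-type TH17 libraries, and myeloid markers to 12.9 to 14.9 and 3.70 to 6.14 TPM, and their part in the histone values was not tested.

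Between DMSO cultures, the summed TPM of clustered histone genes was higher in Treg than in TH17 libraries for all 5 histone types, by the least for H2A. The summed TPM of H1 genes was 29.8 ± 4.06 in Treg and 10.96 ± 1.23 in TH17 libraries, a ratio of 2.72, the highest of the types. Ratios were 2.34 for H4, 2.19 for H3, 1.90 for H2B and 1.29 for H2A genes. Under median-of-ratios scaling the H2A ratio fell to 1.10, and the H2A sums of the Treg and TH17 libraries then overlapped. By gene, 27 of 56 members were called higher in Treg libraries and 0 lower (limma), with 35 higher and 1 lower at an unadjusted p under 0.05. Of all genes tested, 32.3% were called higher and 12.5% lower, beside 48.2% of members higher. Of all calls, 72.0% were higher, and 49.2% under median-of-ratios scaling. The members' median difference was 0.84, against 0.18 over all genes. These DMSO TH17 libraries are the same ones that serve as controls for the Srci1 and knockout comparisons in TH17 cultures.

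The H1 genes, which encode the linker histones that bind between nucleosomes, were all called. Hist1h1a (chr13:23763666-23764406) held 5.77, 6.5 and 9.78 TPM in DMSO Treg libraries, against 1.46, 1.93 and 0.73 TPM in DMSO TH17 libraries (1.82 ± 0.34, limma adjusted p = 0.000716). Hist1h1b (chr13:21779883-21780625) held 5.07, 10.3 and 9.91 TPM in Treg, against 1.09, 2.34 and 1.74 TPM in TH17 libraries (1.76 ± 0.29, limma adjusted p = 0.00023). Hist1h1c held 11.96, 11.3 and 10.9 TPM in Treg, against 6.27, 6.06 and 6.98 TPM in TH17 libraries (0.73 ± 0.14, limma adjusted p = 0.000784). None of these groups overlapped, and Hist1h1a and Hist1h1b have no near copy. Hist1h1e was called at 0.61 ± 0.23 (limma adjusted p = 0.0457), and that call ended in 12 of 13 alternatives.

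Among core histones, 9 of 11 H3, 7 of 11 H4, 4 of 15 H2A and 3 of 15 H2B genes were called, beside 32.3% of all genes called higher. The H2A and H2B shares are below that of all genes, and the types were not tested against it. Hist1h3c held 44.9, 39.8 and 48.8 TPM in DMSO Treg libraries, against 18.0, 12.3 and 21.3 TPM in DMSO TH17 libraries (1.35 ± 0.15, limma adjusted p = 8.77e-06). Hist1h4i held 35.2, 40.1 and 34.2 TPM in Treg, against 15.9, 21.1 and 19.7 TPM in TH17 libraries (0.92 ± 0.11, limma adjusted p = 1.01e-05). Hist1h2ap, an H2A gene, held 35.5, 43.1 and 53.8 TPM in Treg, against 23.6, 21.4 and 22.7 TPM in TH17 libraries (0.92 ± 0.22, limma adjusted p = 0.00385). Each of the 27 called members separated the 2 groups without overlap. This adds no support to the calls, which rest on the same values, and the share over all genes was not counted. The highest differences among called core genes were those of Hist1h4f, Hist1h3b and Hist1h2an. Hist1h4f held 11.2, 6.90 and 22.1 TPM in Treg, against 5.28, 2.03 and 2.02 TPM in TH17 libraries (1.76 ± 0.61, limma adjusted p = 0.03). Hist1h3b held 6.79, 8.21 and 4.28 TPM in Treg, against 1.82, 1.77 and 1.14 TPM in TH17 libraries (1.5 ± 0.41, limma adjusted p = 0.00879). Hist1h2an held 12.02, 7.30 and 15.6 TPM in Treg, against 1.35, 5.67 and 5.51 TPM in TH17 libraries (1.38 ± 0.42, limma adjusted p = 0.0157). Of these 3, the call of Hist1h3b held in each alternative, while that of Hist1h4f ended without DMSO TH17 replicate 2 or 3 or DMSO Treg replicate 1 or 3 and that of Hist1h2an without DMSO TH17 replicate 1 or DMSO Treg replicate 3 (adjusted p up to 0.124 and 0.0676). Hist1h2bj, Hist1h2ag and Hist1h3a were called, at 1.13 ± 0.34, 0.83 ± 0.21 and 0.75 ± 0.28, with adjusted p of 0.0152, 0.0058 and 0.0403 (limma), and each call ended under quantile normalization, those of Hist1h2bj and Hist1h3a also without DMSO TH17 replicate 1 or DMSO Treg replicate 3 (adjusted p up to 0.0924 and 0.231). Hist1h2ai, the eighth highest member, was at 16.3 ± 4.12 TPM in Treg and 14.1 ± 1.38 TPM in TH17 libraries and was called in none of the comparisons.

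Quantile normalization left 15 of the 27 calls, and 14 held in each alternative that tested them. Red blood cell markers summed to 7.31 to 13.6 TPM in DMSO Treg and 0 to 1.02 TPM in DMSO TH17 libraries. Transcripts without a canonical poly(A) tail also differed between these groups. A list of 7 such RNAs summed to 1081 to 1126 TPM in DMSO Treg libraries and 409.1 to 602.2 TPM in DMSO TH17 libraries. In DMSO Treg libraries most of this was the small nuclear RNA Rn7sk, at 801.5 ± 24.5 TPM, against 111.8 ± 22.0 TPM in DMSO TH17 libraries (SD, n = 3 each), while Rny1, Rny3 and Terc were listed at 0 in each library. In Srci1 Treg libraries the list summed to 497.3 to 552.8 TPM. The part of these cells and transcripts in the histone values was not tested.

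**Figure D4:**
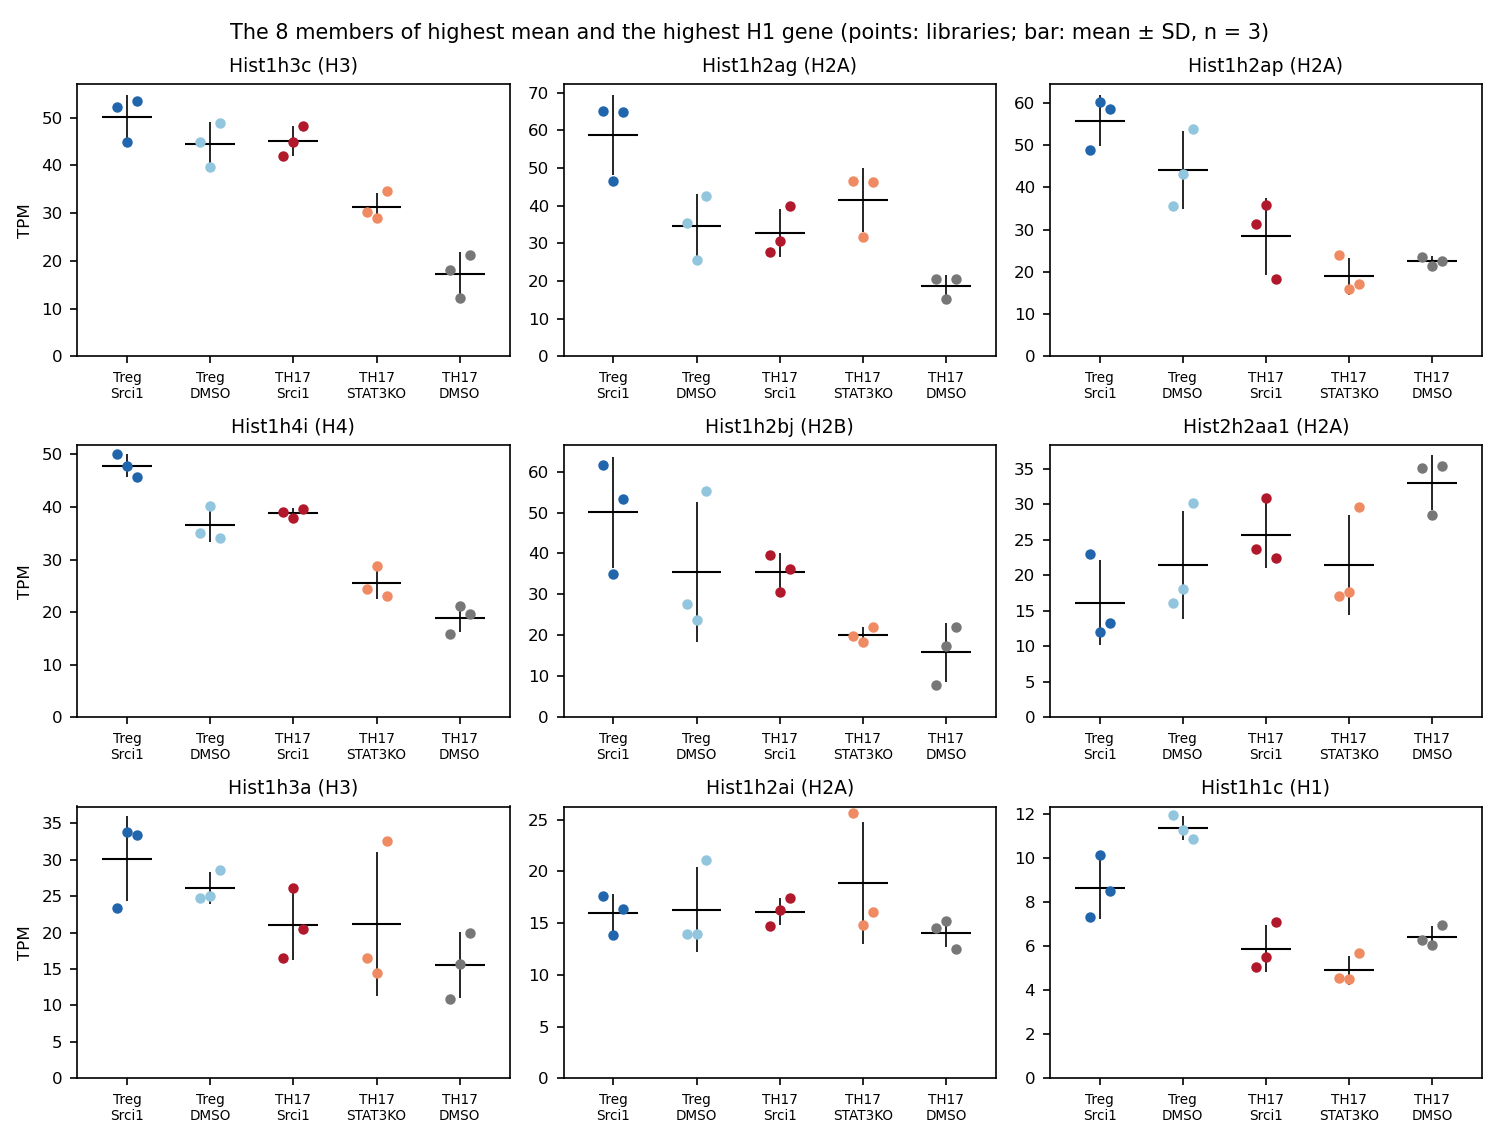
The y axes give the TPM of the 8 members of highest mean and of the highest H1 gene, points are single libraries, and bars with lines are the mean ± SD of 3 libraries per group. Hist1h3c and Hist1h4i are lowest in DMSO TH17 libraries, at 12.3 to 21.3 and 15.9 to 21.1 TPM, whereas Hist2h2aa1 is highest there, at 28.5 to 35.5 TPM, and overlaps other groups.

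In Treg cultures, Srci1 went with few called changes of clustered histone genes. Only 4 of 56 members were called higher and 0 lower (limma), with 5 higher and 2 lower at an unadjusted p under 0.05, Hist1h1b and Hist1h1c being the lower ones. Of all genes tested, 17.1% were called higher and 10.0% lower, beside 7.14% of members higher. Of all calls, 63.0% were higher, and 43.7% under median-of-ratios scaling. The members' median difference of 0.17 was near the 0.11 of all genes. H2A genes summed to 222.7 ± 22.9 TPM with Srci1 and 168.3 ± 23.1 TPM with DMSO, a ratio of 1.32. That of H4 genes was 130.9 ± 8.36 with Srci1 and 127.3 ± 9.84 with DMSO, a ratio of 1.03 that became 0.942 under median-of-ratios scaling. H1 genes had a ratio of 0.694, at 20.7 ± 3.27 TPM with Srci1 and 29.8 ± 4.06 TPM with DMSO (SD, n = 3 each), with differences below 0 in 4 of 4 genes and 0 called (limma), 2 of them at an unadjusted p under 0.05. Hist1h1c was called lower under median-of-ratios scaling and without Srci1 Treg replicate 2 (adjusted p = 0.0366 and 0.0389), and Hist1h1b without DMSO Treg replicate 1 and without Srci1 Treg replicate 3 (adjusted p = 0.0275 and 0.038).

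Hist1h2ag held 65.0, 46.5 and 64.9 TPM in Srci1 Treg libraries, against 35.4, 25.5 and 42.7 TPM in DMSO Treg libraries (0.76 ± 0.21, limma adjusted p = 0.0165). Hist1h2ae held 13.4, 18.0 and 12.2 TPM with Srci1, against 8.18, 7.19 and 7.94 TPM with DMSO (0.81 ± 0.21, limma adjusted p = 0.0111). Hist1h4i held 50, 47.9 and 45.7 TPM with Srci1, against 35.2, 40.1 and 34.2 TPM with DMSO (0.38 ± 0.11, limma adjusted p = 0.0167). These 3 genes separated by treatment. Hist1h2bf held 4.85, 0.63 and 3.91 TPM with Srci1, against 0.48, 0.91 and 0 TPM with DMSO (1.35 ± 0.47, limma adjusted p = 0.0462), and its groups overlapped. None of the 4 calls held in every alternative. Of the 4, 2 were kept without DMSO Treg replicate 1, 2 or 3 or Srci1 Treg replicate 3, and 2 under quantile normalization. Only that of Hist1h2ae was kept under median-of-ratios scaling and without Srci1 Treg replicate 1. The call of Hist1h2ae ended without Srci1 Treg replicate 2 (adjusted p = 0.0544). Red blood cell markers summed to 31.0 to 34.8 TPM in Srci1 Treg and 7.31 to 13.6 TPM in DMSO Treg libraries, and their part was not tested.

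The Srci1 difference was called larger in TH17 than in Treg cultures for 4 members and smaller for 0. This was a limma test of the difference of the 2 differences, with 10 higher and 0 lower at an unadjusted p under 0.05. Its value was above 0 in 46 members and below 0 in 10. Of all genes tested, 11.3% were called higher and 2.95% lower in this test, beside 7.14% of members higher, and of all calls 79.2% were higher, or 61.6% under median-of-ratios scaling. Differences had a median of 0.40 in members and 0.13 over all genes. The 4 were the H3 genes Hist1h3c and Hist2h3c2 and the H4 genes Hist1h4h and Hist1h4i. Hist1h3c was 45.1 ± 3.13 TPM in Srci1 TH17 and 17.2 ± 4.55 TPM in DMSO TH17 libraries, and 50.3 ± 4.58 TPM in Srci1 Treg and 44.5 ± 4.56 TPM in DMSO Treg libraries. For Hist2h3c2, whose transcript has 37.4% unique stretches, the TH17 difference was 0.83 ± 0.21 and the Treg difference -0.40 ± 0.21. In each of these 4 genes the DMSO TH17 mean was the lowest of the 4 wild-type groups. The calls of Hist1h3c and Hist2h3c2 held in each alternative that tested them, and those of Hist1h4h and Hist1h4i ended under both scalings (adjusted p up to 0.124 and 0.0856), that of Hist1h4h also without most of the single libraries.

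Grouped by where the annotated transcript ends, the 16 members that run over 60 bases past the stem-loop summed to 155.6 ± 2.35 TPM in Srci1 Treg, 135.5 ± 2.00 TPM in DMSO Treg, 126.1 ± 6.08 TPM in Srci1 TH17, 98.1 ± 3.44 TPM in STAT3 knockout and 64.6 ± 7.05 TPM in DMSO TH17 libraries (SD, n = 3 each). In this sum of TPM the libraries of each group lay apart from those of every other group. Under median-of-ratios scaling DMSO TH17 replicate 3 rose above knockout replicate 2. Much of the sum came from Hist1h3c and Hist1h4i, with means of 45.1 and 38.9 TPM in Srci1 TH17 and 17.2 and 18.9 TPM in DMSO TH17 libraries. In DMSO Treg against DMSO TH17 libraries, 13 of these 16 were called higher, beside 9 of the 20 that end sooner, 5 of the 20 with no stem-loop in the model and 32.3% of all genes. With Srci1 in TH17 cultures the counts were 7 of 16, 7 of 20 and 3 of 20, or 43.8%, 35% and 15%, beside 33.8% of all genes. In the knockout 5 of 16, 2 of 20 and 2 of 20 were called higher, or 31.2%, 10.0% and 10.0%, beside 30.9% of all genes, so the first share is that of all genes. The shares were not tested against each other.

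The summed TPM of the gene clusters did not move alike. The 47 Hist1 members summed to 445.7 ± 11.3 TPM in Srci1 TH17, 327.5 ± 30.7 TPM in STAT3 knockout and 236.6 ± 23.4 TPM in DMSO TH17 libraries. The 7 Hist2 members summed to 48.8 ± 5.24 TPM in Srci1 TH17, 48.4 ± 3.41 TPM in STAT3 knockout and 60.4 ± 7.88 TPM in DMSO TH17 libraries (SD, n = 3 each). In Treg libraries Hist1 members summed to 581.9 ± 44.4 TPM with Srci1 and 490.9 ± 54.8 TPM with DMSO, and Hist2 members to 51.9 ± 4.02 TPM with Srci1 and 49.0 ± 5.93 TPM with DMSO, a ratio of 1.06 that became 0.973 under median-of-ratios scaling. So the mean Hist2 sum was highest in the DMSO TH17 group, where that of Hist1 was lowest, but its libraries overlapped those of each other group. Hist2 members differed among themselves. Hist2h3b was 8.66 TPM in DMSO Treg and 3.72 TPM in DMSO TH17 libraries, and Hist2h3c2 3.32 and 0.82 TPM, in the direction of Hist1. In that comparison 3 of 7 Hist2 differences were above 0 and 4 below. Most of the Hist2 sum came from Hist2h2aa1 and Hist2h2aa2, an H2A pair whose transcripts share nearly all stretches. This pair summed to 23.0, 30.8 and 29.0 TPM in Srci1 Treg, 28.4, 30.8 and 30.2 TPM in DMSO Treg, 29.9, 33.0 and 36.8 TPM in Srci1 TH17, 29.9, 35.0 and 38.3 TPM in STAT3 knockout, and 58.3, 43.1 and 51.2 TPM in DMSO TH17 libraries. Every DMSO TH17 library was above all 12 others for the pair, and the sum was not tested. Hist2h2aa1 alone was called in no comparison (limma adjusted p from 0.0665 to 0.974). It was called lower in the knockout than in wild type under median-of-ratios scaling, under quantile normalization and without knockout replicate 3 (adjusted p from 0.0194 to 0.0493), and lower in DMSO Treg than in DMSO TH17 libraries under both scalings and without DMSO Treg replicate 3 (adjusted p from 0.0176 to 0.0325).

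**Figure D5:**
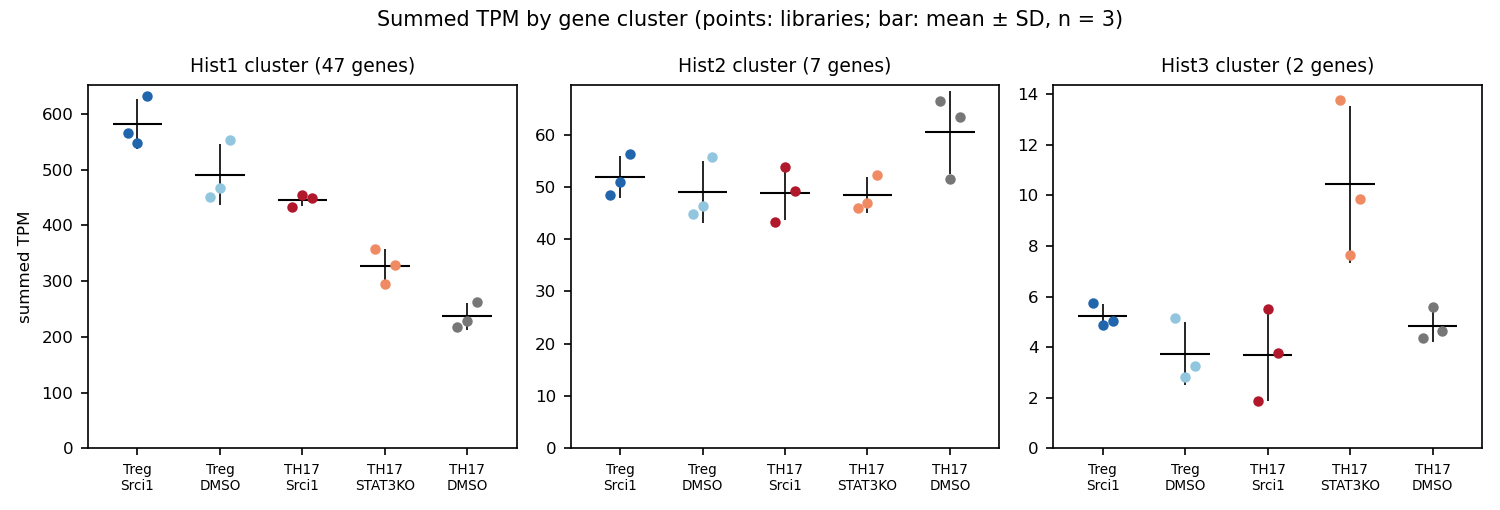
The y axes give the summed TPM of the members of the Hist1, Hist2 and Hist3 clusters, points are single libraries, and bars with lines are the mean ± SD of 3 libraries per group. The DMSO TH17 group has the lowest Hist1 mean, at 236.6 TPM, and the highest Hist2 mean, at 60.4 TPM, and the STAT3 knockout has the highest Hist3 mean, at 10.4 TPM. In the Hist2 panel the DMSO TH17 libraries overlap those of each other group.

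The 2 Hist3 members, Hist3h2a and the H2B gene Hist3h2ba, summed to 10.4 ± 3.11 TPM in STAT3 knockout and 4.85 ± 0.64 TPM in wild-type TH17 libraries (SD, n = 3 each). Every knockout library, at 13.8, 7.64 and 9.87 TPM, was above the 4.36, 5.57 and 4.62 TPM of the wild type. Hist3h2ba itself was not called, at 9.77, 3.4 and 6.27 TPM in the knockout, against 2.66, 3.73 and 2.86 TPM in wild type (0.79, limma adjusted p = 0.0918).

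Genes of DNA replication, which cells express in the same phase as histones, were measured beside the members from a list of 22, among them the helicase subunits Mcm2 to Mcm7 and the clamp Pcna. Of these, 22 were called higher with Srci1 in TH17 cultures, 18 in the STAT3 knockout, 15 with Srci1 in Treg cultures and 20 in DMSO Treg against DMSO TH17 libraries, and 0 were called lower. The 13 genes of a mitosis list were called higher 13, 13, 11 and 13 times in the same order. The shares of all genes called higher were 33.8%, 30.9%, 17.1% and 32.3%. The summed TPM of the replication list had ratios of 1.58 with Srci1 in TH17, 1.47 in the knockout, 1.299 with Srci1 in Treg and 1.62 in Treg against TH17 cultures. The members' sum had ratios of 1.65, 1.28, 1.18 and 1.80 in that order. For each 100 TPM of the replication list there were 17.0 ± 1.80 TPM of members in Srci1 Treg, 18.7 ± 2.13 in DMSO Treg, 17.6 ± 1.18 in Srci1 TH17, 14.7 ± 1.55 in STAT3 knockout and 16.9 ± 2.61 in DMSO TH17 libraries (SD, n = 3 each). These ratios overlapped between all groups compared. By contrast, H1 members stood at 0.549 ± 0.0975 TPM for each 100 TPM of replication genes in Srci1 Treg and 1.02 ± 0.138 in DMSO Treg libraries, without overlap. In TH17 cultures H1 members stood at 0.401 ± 0.0184 TPM with Srci1, 0.303 ± 0.0538 TPM in the STAT3 knockout and 0.611 ± 0.0778 TPM with DMSO. There too the DMSO libraries lay above all those with Srci1 and all knockout ones. Hist2 members stood at 1.72 ± 0.236 TPM in Srci1 TH17, 1.84 ± 0.187 TPM in STAT3 knockout and 3.37 ± 0.487 TPM in DMSO TH17 libraries, and the DMSO TH17 libraries lay above those of the other 2 groups, which overlapped.

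Among genes that act on histone mRNA, Slbp, which encodes the stem-loop binding protein, was called higher in 4 comparisons. It held 148.8, 144.8 and 166.0 TPM in Srci1 Treg libraries, against 105.5, 98.0 and 99.5 TPM in DMSO Treg libraries (0.60 ± 0.08, limma adjusted p = 8.71e-05). It held 109.2, 91.3 and 99.0 TPM in Srci1 TH17 and 105.9, 122.2 and 109.5 TPM in STAT3 knockout libraries, against 71.8, 67.8 and 71.3 TPM in DMSO TH17 libraries (0.50 ± 0.08 and 0.67 ± 0.08, limma adjusted p = 0.00025 and 7.11e-06). No DMSO TH17 library reached any library of the other groups. Of 11 genes for forming the 3′ end of histone mRNA, 6 were called higher with Srci1 in TH17 cultures, 3 higher and 1 lower in the knockout, 3 higher with Srci1 in Treg cultures and 5 higher in DMSO Treg against DMSO TH17 libraries. The shares of all genes called higher were 33.8%, 30.9%, 17.1% and 32.3% in that order, and the knockout count is near its share. The list was not tested against these shares. The gene of this list called lower in the knockout was Zfp473, a zinc finger protein gene of the U7 processing machinery, at 1.70 ± 0.46 TPM in the knockout and 3.24 ± 0.55 TPM in wild type (limma adjusted p = 0.0023). Lsm11, a protein of the U7 particle that cuts histone pre-mRNA, ranged from 7.69 to 8.81 TPM in group means and was not called.

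Of 9 genes for the transcription of clustered histone genes, 5 were called higher with Srci1 in TH17 cultures, 3 in the knockout, 3 with Srci1 in Treg cultures and 4 in DMSO Treg against DMSO TH17 libraries, with 0 lower. Beside them, 33.8%, 30.9%, 17.1% and 32.3% of all genes were called higher in that order. The knockout count is near its share, and the list was not tested against these shares. Hinfp, a factor that binds H4 gene promoters, was 30.9 ± 4.61 TPM in Srci1 TH17 and 14.6 ± 5.97 TPM in DMSO TH17 libraries (1.09 ± 0.24, limma adjusted p = 0.00278). Npat, the coactivator that cyclin E and CDK2 activate at histone loci, ranged from 6.63 to 12.3 TPM in group means and was called in no comparison. Among histone genes outside the clusters, H2afz and H2afx were called higher in 4 comparisons. H2afz, which encodes H2A.Z, was 1557 ± 19.8 TPM in Srci1 Treg, 1208 ± 20.02 TPM in DMSO Treg, 922.7 ± 18.3 TPM in Srci1 TH17, 992.8 ± 20.9 TPM in STAT3 knockout and 559.9 ± 27.0 TPM in DMSO TH17 libraries. H2afy, which encodes macroH2A1, was called lower in the knockout, at 270.2 ± 19.97 TPM, against 470.1 ± 19.3 TPM in wild type (limma adjusted p = 4.89e-08).

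The promoters of members differ by histone type in known sequence elements. RefSeq windows of 300 bases on GRCm38.p6, from 250 before to 50 after the start, were matched for 51 of 56 members. The letters GGTCCG, part of the H4 element bound by HINFP, were searched on both strands and found in 10 of 11 H4 promoters, 1 H2B and 1 H3 promoter, against 8.23% of all other RefSeq promoters. ATTTGCAT, the octamer bound by OCT1, stood in 5 of 14 H2A and 5 of 13 H2B promoters and in none of the H1, H3 or H4 promoters, against 1.69%. The windows of Hist1h2ae and Hist1h2bg overlap, as do those of Hist1h2ah and Hist1h2bk. Each of these H2A and H2B pairs shares its octamer, which is counted for both types. AAACACA, an element known from H1 promoters, stood in 3 of 4 H1 promoters, against 7.17%. CCAAT stood in all H1, H2A, H2B and H3 promoters matched and in 3 of 11 H4 promoters, against 37.3%, and TATAAA in 29 of 51 members, against 13.5%. A match is only a run of letters, and its absence says only that these letters are not in the window. The promoters of the highest H3 gene and of the highest H4 gene, which were called higher in 4 and 5 of the comparisons, are shown 5′ to 3′, both on the minus strand, at chr13:23745472-23745771 and chr13:22041313-22041612. Capitals mark CCAAT in the first, and TATAAA and GGTCCG in the second.
Hist1h3c: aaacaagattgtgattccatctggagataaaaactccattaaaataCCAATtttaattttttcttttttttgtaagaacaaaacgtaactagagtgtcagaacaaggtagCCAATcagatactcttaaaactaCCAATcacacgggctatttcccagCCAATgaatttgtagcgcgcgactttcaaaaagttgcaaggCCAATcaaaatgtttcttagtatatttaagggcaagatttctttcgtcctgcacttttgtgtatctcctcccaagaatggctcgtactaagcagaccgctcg
Hist1h4i: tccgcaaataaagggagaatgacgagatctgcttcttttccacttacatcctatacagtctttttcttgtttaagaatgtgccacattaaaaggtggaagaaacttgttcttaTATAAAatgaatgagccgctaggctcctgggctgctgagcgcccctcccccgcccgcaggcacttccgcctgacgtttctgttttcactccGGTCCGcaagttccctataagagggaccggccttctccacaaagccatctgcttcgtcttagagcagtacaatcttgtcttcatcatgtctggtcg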

How the data were processed

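The authors deposited 1 table of TPM values with 15 library columns, given to 2 decimals. The tools STAR 2.7.9a and RSEM 1.3.3 and the build GRCm38 are named per the submitters' processing notes, while the authors' annotation release, strandedness and filters were not given in the sources used here. Per the labels' protocols, RNA was selected by poly(A) before library preparation. TPM keeps no depth, so read depth and counting error are unknown. Of 55421 rows, 55154 had a record in GENCODE M21 by Ensembl ID, and symbols, coordinates and transcripts came from it. Groups were taken from the labels. Genes at 1 TPM or more in at least 3 libraries (12800) were tested as log2(TPM + 1) with limma 3.58.1 (trended, R 4.3.3) on all 15 libraries and 5 group means, with Benjamini-Hochberg adjustment. Sums, sequence searches and figures used Python 3.11.15, pandas 2.3.3, NumPy 2.4.6, SciPy 1.17.1 and Matplotlib 3.10.9, and the test was tried on simulated data. Values by library are given for the 8 members of highest mean, the highest of each histone type and up to 6 called members per direction and comparison with the largest difference. The members and lists were chosen with earlier results of these data known. Alternatives were another pseudocount (0.1), no filter or one of 5 TPM, median-of-ratios scaling, quantile normalization, rescaling without ribosomal protein and mitochondrial genes, only the groups compared, a replicate block, and each library left out. No protein sequence was used. The sum of the TH17 markers is not reported here.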

Additional observations from a re-analysis of the deposited data

Results flagged for a closer look

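The Srci1 difference in TH17 cultures minus that in Treg cultures, tested as an interaction in limma, passed the adjusted threshold for 4 members, each of them larger in TH17 cultures. It was 1.198 ± 0.218 (SE) for Hist1h3c (adjusted p = 0.00232), where the difference was 1.37 in TH17 and 0.17 in Treg cultures. It was 1.227 ± 0.293 for Hist2h3c2 (adjusted p = 0.0132), at 0.83 in TH17 and -0.40 in Treg cultures. It was 1.086 ± 0.321 for Hist1h4h (adjusted p = 0.0376), at 1.26 in TH17 and 0.17 in Treg cultures, and 0.627 ± 0.151 for Hist1h4i (adjusted p = 0.0138), at 1.01 in TH17 and 0.38 in Treg cultures.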

How the results depend on the processing

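Some small differences of groups of genes changed sign with the scaling. Under median-of-ratios scaling the ratio of summed TPM became 0.859 for H1 genes with Srci1 in TH17 cultures, and 0.942 for H4 and 0.973 for Hist2 genes with Srci1 in Treg cultures. The median difference became -0.09 in place of 0.06 for H1 genes with Srci1 in TH17 cultures, -0.07 in place of 0.04 for H3 and -0.06 in place of 0.04 for H4 genes with Srci1 in Treg cultures, and, for Hist2 genes in the interaction, -0.12 in place of 0.03. Quantile normalization also turned the first, second and last of these, and took the H4 median in the knockout to -0.04 in place of 0.08. Rescaling without ribosomal protein genes turned the second and the last, to -0.01 and -0.02. Under median-of-ratios scaling, 8 members were called higher with Srci1 in TH17 cultures in place of 17, 5 in the knockout in place of 9, 1 with Srci1 in Treg cultures in place of 4 and 2 in the interaction in place of 4. Quantile normalization gave 7, 5, 2 and 2 in the same order, and 15 in DMSO Treg against DMSO TH17 libraries in place of 27. Members called lower in the knockout numbered 4 with a pseudocount of 0.1, 1 with a minimum of 5 TPM, 6 under median-of-ratios scaling, 7 under quantile normalization and 4 with ribosomal protein and mitochondrial genes taken out before rescaling, in place of 2. Median-of-ratios scaling also gave 1 member called lower with Srci1 in Treg cultures and 1 in DMSO Treg against DMSO TH17 libraries, where quantile normalization also gave 1, in place of 0. Of all genes, Srci1 in TH17 cultures gave 2126 higher and 2112 lower under median-of-ratios scaling, 2159 and 1973 under quantile normalization, and 2859 higher with only the compared groups fitted, in place of 4324 and 906. DMSO Treg against DMSO TH17 libraries gave 2701 higher and 2789 lower under median-of-ratios scaling and 2710 and 2739 under quantile normalization, in place of 4132 and 1605. Srci1 in Treg cultures gave 1369 higher under median-of-ratios scaling in place of 2192, and the interaction 710 and 827 lower under the 2 scalings in place of 378. Both scalings bring the median difference of all genes to about 0, from 0.21 with Srci1 in TH17 cultures and 0.18 in DMSO Treg against DMSO TH17 libraries; the members' median above that of all genes was 0.43, 0.12, 0.06 and 0.66 in the 4 comparisons as reported and 0.41, 0.16, 0.05 and 0.67 under median-of-ratios scaling.

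Without 1 library at a time, members called higher and lower ranged from 10 to 15 and 0 to 1 with Srci1 in TH17 cultures, 7 to 10 and 2 to 4 in the knockout, 2 to 3 and 0 to 1 with Srci1 in Treg cultures, 21 to 27 and 0 to 1 in DMSO Treg against DMSO TH17 libraries, and 3 to 5 and 0 to 0 in the interaction. The member called lower with Srci1 in TH17 cultures was Hist3h2ba, without Srci1 TH17 replicate 2. For all genes the ranges were 3290 to 4646 and 742 to 866, 3330 to 4087 and 2083 to 2698, 1510 to 1716 and 1047 to 1103, 3346 to 4476 and 1352 to 1656, and 1048 to 1722 and 257 to 394 in the same order. Replicate numbers did not pair the libraries: deviations of same-numbered libraries correlated at -0.171 to 0.128, over 0.1 in 2 of 30 pairs. With a replicate block, 17, 7, 3, 28 and 4 members were called higher and 0, 3, 0, 0 and 0 lower. With no depth in TPM, differences of members near 1 TPM cannot be set against counting error.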

Other observations

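Chaperones that carry histones to DNA and the enzymes that degrade histone mRNA were measured beside the members. Of 15 chaperone genes, 9 were called higher and 1 lower with Srci1 in TH17 cultures, 8 and 2 in the STAT3 knockout, 6 and 0 with Srci1 in Treg cultures, and 11 and 1 in DMSO Treg against DMSO TH17 libraries (limma). Of 8 decay genes, 4, 3, 2 and 5 were called higher in the same order and 0 lower. Beside both lists, 33.8%, 30.9%, 17.1% and 32.3% of all genes were called higher and 7.08%, 18.9%, 10.0% and 12.5% lower in that order. Neither list was tested against these shares. The 11 clustered histone genes below the minimum summed to 3.18 ± 0.50 TPM in Srci1 Treg, 2.89 ± 0.65 TPM in DMSO Treg, 1.93 ± 0.56 TPM in Srci1 TH17, 1.06 ± 0.35 TPM in STAT3 knockout and 1.02 ± 0.12 TPM in DMSO TH17 libraries (SD, n = 3 each), and were not tested.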
